A study of Mus musculus with 75 samples.

Results

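The genes described here are the cyclin-dependent kinase (CDK) inhibitors Cdkn1a, Cdkn1b, Cdkn2a, Cdkn2b, Cdkn2c and Cdkn2d, together with Cdkn3, 7 of the 24984 genes in the count tables. They were chosen by name, and their 10 annotated start sites and the Cdkn2a-to-Cdkn2b locus were looked up in the ATAC-seq peaks, a map of open chromatin. The study followed replicative senescence (RS), the lasting arrest of cells that have divided many times in culture, in skin fibroblasts of C57BL/6 mice. RNA was sequenced from untreated cells at passage 1 (P1), P3, P5 and P7, with 4 libraries a passage, and ATAC-seq was done on 4 samples at P1 and on 3 at every later passage. The cells of the passage series came from young adult female mice. In further fibroblasts, taken from newborn and adult mice, E2f4 was overexpressed in pre-senescent cells from a doxycycline-inducible lentivirus (E2f4_OE, 2 libraries) against an EGFP vector (E2f4_OE_control, 2 libraries). Lentiviral hairpins, selected with puromycin, were directed at E2f4 (sh1), Tead1 (sh3 and sh4) and Atf3 (sh5 and sh6). Each of these experiments had a non-targeting hairpin (nt), with 3 libraries in every hairpin and nt group. The study describes the cells of the E2f4 knockdown as proliferating and those of the Atf3 knockdown as pre-senescent. Libraries are named by group and number here, and nothing in the labels says which of them came from separate cultures or animals, so p-values measure the spread between libraries, which may be technical.

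CDK inhibitors are small proteins that stop the kinases which drive a cell from rest into DNA synthesis. The INK4 family, p16Ink4a (from Cdkn2a), p15Ink4b (Cdkn2b), p18Ink4c (Cdkn2c) and p19Ink4d (Cdkn2d), binds the D-cyclin kinases CDK4 and CDK6. The CIP/KIP family, here p21 (Cdkn1a) and p27 (Cdkn1b), binds cyclin E and cyclin A complexes of CDK2. Cdkn2a has a separate upstream start whose product, p19Arf, reads another frame and frees p53 from MDM2, and Cdkn1a is a target gene of p53. Cdkn3 encodes a phosphatase that removes an activating phosphate from CDK2 and is transcribed in dividing cells. Cdkn2a and Cdkn2b lie side by side and are held silent by Polycomb proteins in young cells, and p16Ink4a and p21 are the inhibitors by which senescent fibroblasts are usually recognised.

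In RefSeq's annotation of GRCm38.p6, the assembly of the mm10 coordinates used in the peak files, Cdkn2a occupies chr4:89274473-89294619 and Cdkn2b chr4:89306289-89311032, both on the minus strand. The p19Arf transcript starts at position 89294619 and the p16Ink4a transcript at 89282192, inside the first intron of the longer one. Cdkn2c is on the same chromosome at chr4:109660876-109666756, with starts at 109666756 and 109665372, and Cdkn2d is at chr9:21288459-21291421, both on the minus strand. On the plus strand, Cdkn1a is at chr17:29090979-29100722, with an upstream start at 29090979 and a downstream start at 29093769, Cdkn1b at chr6:134920401-134925525 and Cdkn3 at chr14:46760461-46771530. The counts do not separate the transcripts of a gene, so p16Ink4a and p19Arf share the Cdkn2a count. The antisense non-coding gene Gm12610 spans Cdkn2b, but 0 bases of the curated exons of any of the 7 genes overlap an exon of another gene on either strand.

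The 250 bases before 5 of the 10 start sites are printed 5′ to 3′. They are a selection, and the Cdkn2c starts are not among them, although their peak rank and RNA moved too. The stretches before all 10 start sites were found in RefSeq's promoter table and match the genome. Motifs searched on both strands stand in capitals. They were the E2F site TTTNNCGC, the cell cycle homology (CHR) element TTTGAA, the CCAAT box CCAAT, the GC box GGGCGG, the TEAD site GGAATG, the cyclic AMP response element TGACGTCA, the AP-1 site TGANTCA, the TATA box TATAAA and the p53 decamer. In Cdkn2d a GC box overlaps the p53 decamer.
Cdkn2a, before the p16Ink4a start, chr4:89282193-89282442, minus strand: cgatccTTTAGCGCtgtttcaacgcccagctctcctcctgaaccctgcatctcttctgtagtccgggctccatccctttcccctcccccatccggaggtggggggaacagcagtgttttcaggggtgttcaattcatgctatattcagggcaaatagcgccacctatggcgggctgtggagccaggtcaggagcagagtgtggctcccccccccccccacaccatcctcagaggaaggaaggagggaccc
Cdkn2a, before the p19Arf start, chr4:89294620-89294869, minus strand: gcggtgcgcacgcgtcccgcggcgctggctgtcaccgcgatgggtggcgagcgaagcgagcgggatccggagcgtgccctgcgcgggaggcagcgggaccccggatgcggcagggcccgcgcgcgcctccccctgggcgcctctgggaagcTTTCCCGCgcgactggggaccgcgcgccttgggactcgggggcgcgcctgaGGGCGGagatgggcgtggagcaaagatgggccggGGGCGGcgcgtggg
Cdkn2b, chr4:89311033-89311282, minus strand: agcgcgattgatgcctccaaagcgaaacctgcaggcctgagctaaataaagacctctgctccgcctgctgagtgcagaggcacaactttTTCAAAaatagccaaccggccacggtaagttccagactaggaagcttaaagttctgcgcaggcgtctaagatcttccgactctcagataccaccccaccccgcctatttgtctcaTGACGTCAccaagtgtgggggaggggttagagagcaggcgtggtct
Cdkn1a, before the upstream start, chr17:29090729-29090978, plus strand: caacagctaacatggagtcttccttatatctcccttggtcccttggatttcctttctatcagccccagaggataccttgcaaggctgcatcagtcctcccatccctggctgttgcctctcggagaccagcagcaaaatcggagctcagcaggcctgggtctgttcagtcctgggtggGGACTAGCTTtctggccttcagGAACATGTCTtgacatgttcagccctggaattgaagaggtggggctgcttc
Cdkn3, chr14:46760291-46760540, plus strand: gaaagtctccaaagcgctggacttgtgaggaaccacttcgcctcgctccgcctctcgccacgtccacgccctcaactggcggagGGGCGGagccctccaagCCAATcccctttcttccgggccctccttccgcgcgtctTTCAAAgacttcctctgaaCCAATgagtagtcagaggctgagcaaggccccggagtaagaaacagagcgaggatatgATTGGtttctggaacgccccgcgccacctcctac

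The E2F letters occurred before both Cdkn2a starts, from -99 to -92 of the p19Arf start and from -244 to -237 of the p16Ink4a start, and before none of the other 8. They occur in 4.28% of the 32851 promoters in the table. The cyclic AMP response element, to which ATF factors bind, was found only in Cdkn2b (-46 to -39), and 1.55% of all promoters hold it. The CHR element, through which cell cycle genes are repressed in resting cells, lay at -111 to -106 of Cdkn3 and at -161 to -156 of Cdkn2b, against 16% of all promoters. Cdkn3 also held 3 CCAAT boxes, a motif present in 33.8% of promoters. The p53 decamer occurred at -73 to -64 and at -51 to -42 of the upstream Cdkn1a start and once in Cdkn2d, against 7.13% of promoters. GC boxes were found in 6 of the 10 (32.7% of all promoters), and the TEAD, AP-1 and TATA letters in 0 of the 10 (12.6%, 6.75% and 12.4% of all promoters). The p19Arf promoter had 78.4% G or C and 40 CG pairs, and the p16Ink4a promoter 60.0% and 7. These matches are a description of the letters and say nothing of which factor was bound.

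Library totals over genes ran from 9147324 to 27552949 counts, and the files of the manipulation experiments hold a further 7.50% to 16.76% of counts on rows that name no gene. All 10 fibroblast markers were detected in every group, and 6 were higher and 4 lower at P7 than at P1. Markers of other cell types moved with passage: the summed level of 10 macrophage markers was 335 to 511 CPM (read counts scaled to library size) at P1 and 22.8 to 64.8 CPM at the later passages, and 10 endothelial markers fell from 190 to 212 CPM at P1 to 12.4 to 15.97 CPM at P7. Their part in the passage results was not tested. In bulk RNA, fewer cells of a type and less RNA per cell cannot be told apart. The sum of 10 proliferation markers was 1404 to 1468 CPM at P1, 1127 to 1330 in the P3 libraries, 414 to 670 at P5 and 191 to 239 at P7. The targeted genes moved as labelled: E2f4 was at 1118 and 1179.8 CPM in E2f4_OE against 35.5 and 47.5 with the vector, and its log2 fold change with sh1 was -1.497 (adjusted p = 2.14e-07). Tead1 fell by 0.96 on the log2 scale with sh3 and by 0.78 with sh4. Atf3 was scarce, at 2.77 to 3.31 CPM with nt, 0.451 to 2.10 with sh5 and 1.51 to 2.09 with sh6, and its fall passed the test with sh5 (adjusted p = 0.0447) but not with sh6 (adjusted p = 0.114). The library Atf3_sh5 replicate 3 stood apart, with a root mean square log2 difference of 0.665 to the rest of its group, where all other libraries lay between 0.288 and 0.493.

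Across the passages the 7 genes split. Cdkn1a, Cdkn2a and Cdkn2b rose, and Cdkn1b, Cdkn2c, Cdkn2d and Cdkn3 fell. All 7 passed the test between P7 and P1 (edgeR's quasi-likelihood test, Benjamini-Hochberg adjusted over all genes), where 62.5% of the 13442 genes tested passed it, 30.5% higher and 31.9% lower. The libraries of P7 and P1 did not overlap for any of the 7. Their median log2 fold change was -0.82, against -0.01 over all genes tested. Because so many genes moved, the count of 7 says little about these genes as a group, and the sizes and the order of the steps are given gene by gene.

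**Figure D1:**
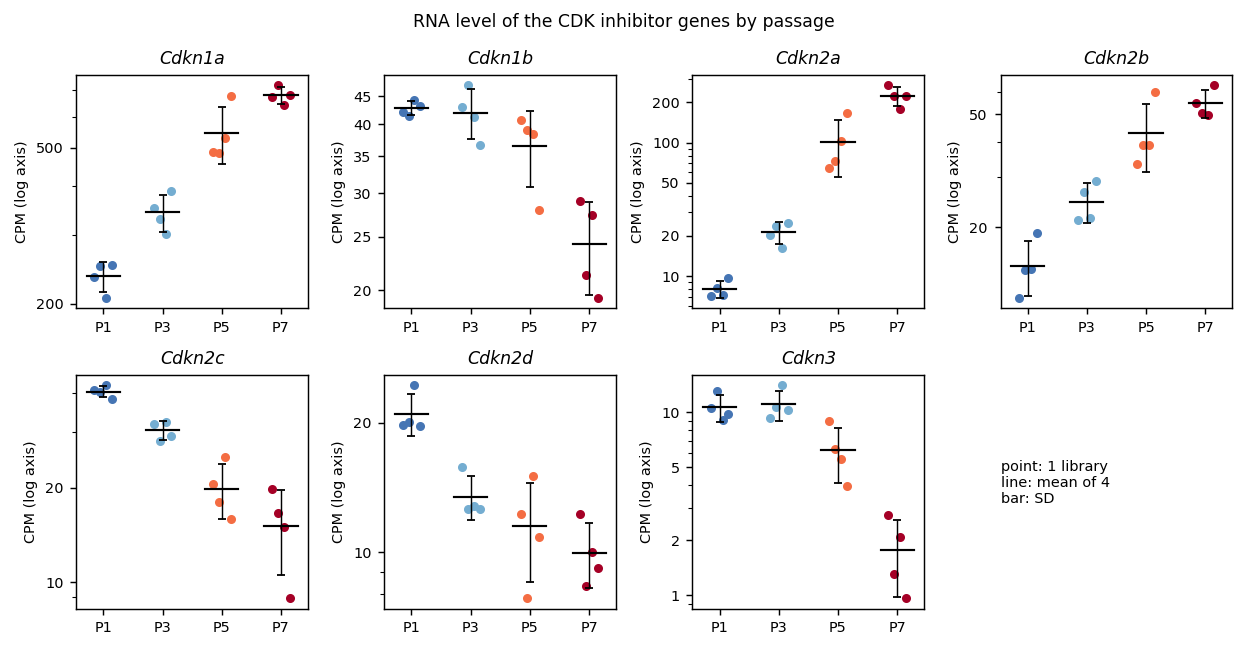
RNA level in CPM on a log axis for each of the 7 genes in the 4 libraries of P1, P3, P5 and P7, with the mean and SD. Cdkn1a, Cdkn2a and Cdkn2b climb from P1 to P7. Cdkn2c and Cdkn2d are already lower at P3 than at P1, and Cdkn1b and Cdkn3 lie level at P1 and P3 and fall later.

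Cdkn2a, the source of p16Ink4a and p19Arf, was the lowest of the 7 at P1 per length and the second highest at P7. Its levels were 7.12, 8.22, 7.25 and 9.65 CPM at P1, 20.5, 23.7, 16.3 and 25.1 at P3, 64.4, 72.7, 102 and 166 at P5, and 269, 224, 179 and 225 at P7. No library of any passage overlapped those of the passage before it. The log2 step was 1.40 ± 0.25 (SE) from P1 to P3, 2.24 ± 0.23 from P3 to P5 and 1.15 ± 0.21 from P5 to P7, and each passed the test (adjusted p = 0.000245, 2.22e-06 and 0.000957), to a level 27.7-fold above P1. P5 replicate 4 was the highest P5 library for Cdkn2a, Cdkn2b and Cdkn1a, and without it the steps around P5 were 1.90 ± 0.17 and 1.49 ± 0.17.

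Cdkn2b, which encodes p15Ink4b, moved less. At P1 its levels were 11.3, 14.1, 14.2 and 19.1 CPM, and at P7 they were 54.9, 50.3, 49.7 and 63.2. P3 (21.3 to 29.2 CPM) and P5 (33.3 to 59.6 CPM) lay between, and P5 and P7 overlapped. The steps were 0.74 ± 0.17 from P1 to P3 (adjusted p = 0.00283), 0.80 ± 0.17 from P3 to P5 (adjusted p = 0.00198) and 0.35 ± 0.16 from P5 to P7 (adjusted p = 0.153). The last step was 0.55 ± 0.15 without P5 replicate 4 and then passed the test (adjusted p = 0.0119).

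The other INK4 genes went the opposite way. Cdkn2c, the p18Ink4c gene, stood at 40.9, 40.2, 42.2 and 38.3 CPM at P1 and at 19.8, 16.7, 14.99 and 8.91 CPM at P7. It was 28.1 to 32.4 CPM at P3 and 15.9 to 25.1 CPM at P5, so that only P5 and P7 overlapped. The fall from P1 to P7 was 2.68-fold (adjusted p = 5.51e-07). The step from P1 to P3, -0.41 ± 0.16, did not pass the test (adjusted p = 0.057), although the libraries did not overlap, and it passed under 5 of the other settings (adjusted p from 0.000555 to 0.0481). The next step, -0.61 ± 0.17, passed it (adjusted p = 0.0101).

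Cdkn2d, which encodes p19Ink4d, fell early and little after that. Its P1 libraries were at 19.7, 20.05, 24.4 and 19.7 CPM and its P3 libraries at 15.8, 12.6, 12.8 and 12.6. Levels at P5 (7.81 to 14.99 CPM) and P7 (8.33 to 12.3 CPM) overlapped each other. The log2 change from P1 to P3 was -0.64 ± 0.16 (adjusted p = 0.00459) and that from P1 to P7 -1.07 ± 0.16, while neither P3 to P5 (adjusted p = 0.313) nor P5 to P7 (adjusted p = 0.438) passed the test. The whole change from P3 to P7 did (-0.43 ± 0.17, adjusted p = 0.036), but it was lost on leaving out any of 5 libraries, with adjusted p from 0.0512 to 0.113.

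Of the CIP/KIP genes, Cdkn1a, the p21 gene, was the most abundant of the 7 in every group. It measured 233, 249.8, 207 and 250.5 CPM at P1, 349.9, 329, 301 and 389 at P3, 487, 485, 528 and 677 at P5, and 675, 722, 641 and 682 at P7. The P5 library at 677 CPM lay within the P7 range, and no other neighbouring passages overlapped. The steps shrank, from 0.54 ± 0.11 (P1 to P3) and 0.67 ± 0.11 (P3 to P5) to 0.32 ± 0.11 (P5 to P7). The last of them passed the test narrowly (adjusted p = 0.0426) and lost it on leaving out any of 6 libraries (adjusted p from 0.0596 to 0.137).

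Cdkn1b, the p27 gene, did the reverse of Cdkn1a and did so late. The P1 libraries were at 42.2, 41.5, 44.4 and 43.3 CPM, and P3 (36.6 to 47.1 CPM) overlapped them. At P5 the levels were 40.7, 39.1, 38.4 and 28 CPM, and at P7 29.0, 21.3, 27.4 and 19.4. The changes from P1 to P3 (-0.03 ± 0.13, adjusted p = 0.891) and from P3 to P5 (-0.20 ± 0.13, adjusted p = 0.249) did not pass the test, and that from P5 to P7 did (-0.59 ± 0.13, adjusted p = 0.00389), although P5 replicate 4 lay within the P7 range. P7 was 1.76-fold below P1, the smallest change among the 7.

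Cdkn3, the phosphatase gene, fell most. It was at 10.5, 13.05, 9.09 and 9.78 CPM at P1, 9.27, 10.6, 14.0 and 10.3 at P3, 8.92, 6.29, 5.56 and 3.97 at P5, and 2.75, 1.31, 2.08 and 0.965 at P7, where 13 to 36 reads were counted. P1 and P3 overlapped (0.06 ± 0.23, adjusted p = 0.869), and no library overlapped from P3 to P5 or from P5 to P7. The later steps were -0.84 ± 0.23 (adjusted p = 0.0121) and -1.80 ± 0.28 (adjusted p = 0.000179), and P7 was 5.97-fold below P1. The step from P3 to P5 was lost without P3 replicate 3 (adjusted p = 0.053).

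Counted between neighbouring or near passages, 4 of 7 passed the test from P1 to P3 (33.4% of all genes), 6 from P1 to P5 (51.2%), 5 from P3 to P5 (28.7%), 7 from P3 to P7 (51.3%) and 4 from P5 to P7 (16.8%). The P1 and P3 groups each serve in several of these comparisons.

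Levels of different genes were compared as CPM per kilobase of exon. At P1, Cdkn1a was at 115 ± 10.1 (SD, n = 4) and the 6 others lay between 7.10 ± 1.03 (Cdkn2a) and 17.9 ± 0.73 (Cdkn2c). The order below Cdkn1a was Cdkn2c, Cdkn1b, Cdkn2d, Cdkn3, Cdkn2b and Cdkn2a, and every neighbouring pair among these 6 overlapped. At P7 the order was Cdkn1a (334 ± 16.3), Cdkn2a (197 ± 32.2), Cdkn2b (39.1 ± 4.46), Cdkn1b (10.1 ± 1.94), Cdkn2d (7.83 ± 1.34), Cdkn2c (6.69 ± 2.03) and Cdkn3 (2.30 ± 1.03). Among neighbours in this order, only Cdkn1b with Cdkn2d and Cdkn2d with Cdkn2c overlapped. Summed over the INK4 genes, the level per kilobase was 52.1 ± 3.17 at P1, 60.6 ± 4.86 in P3 cells, 138 ± 47.9 at P5 and 251 ± 35.4 at P7. Cdkn2a made up 3.56% ± 0.36 of the sum of the 7 at P1 and 32.9% ± 3.10 at P7, while the share of Cdkn1a was 57.9% ± 2.28 and 56.0% ± 3.13.

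The genes whose passage profiles lay nearest were found by the root mean square (RMS) difference of centred log2 CPM over the 16 libraries, among 9425 genes. For Cdkn3 they were Melk, Dlgap5 and Tacc3 (RMS 0.230 to 0.285), all genes of mitotic or dividing cells. For Cdkn1a they were Ephx1, Pbxip1 and Fbxo25 (0.13), and for Cdkn2b Prnp, Ephx1 and Enpp5 (0.154 to 0.205). For Cdkn2a the closest was Galnt18 (0.65), followed by Prl2c2, a member of a family of near-identical genes whose counts are uncertain, and Pde8b. The measure grows with a gene's own spread (RMS of its centred values), which was 1.88 for Cdkn2a and 0.378 to 1.12 for the others. The differences can therefore not be ranked between members. Haus4, Hnrnpd and Srsf7 were nearest to Cdkn2c (0.19), and Sept6, Oxct1 and Nufip1 to Cdkn1b (0.14 to 0.15). These are descriptions over 16 libraries that share their passages.

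The kinases and cyclins on which the inhibitors act were counted from lists fixed by name, and their counts stand against the 30.5% of all genes that were higher at P7 than at P1 and the 31.9% that were lower. Of the 5 INK4 partners, 4 were higher at P7 than at P1 and 1 was lower, with a median log2 fold change of 0.84: Ccnd2 rose by 2.23 ± 0.14 and Ccnd1 by 1.01 ± 0.22, while Cdk4 was the lower gene. All 6 kinases and cyclins bound by p21 and p27 were lower (median -2.18), among them Ccna2 (-3.25 ± 0.15), Ccnb1 (-2.86 ± 0.19), Cdk1 (-2.39 ± 0.17), Ccne2 (-1.97 ± 0.22) and Cdk2 (-1.21 ± 0.10). None of these 6 had changed upwards at P3 and 1 was lower there, against 6 at P5. Of 4 tested genes listed for the degradation of p21, p27 and other cell cycle proteins, 3 were lower. They included the ubiquitin ligase receptor genes Dtl (-2.72 ± 0.16) and Skp2 (-1.20 ± 0.15). Among the 3 pocket proteins, Rbl1 fell by 2.27 ± 0.12, Rbl2 was higher and Rb1 did not pass the test. A list of 10 genes for Polycomb control of the locus also held the histone demethylase gene Kdm6b, which is not a Polycomb gene. Of these 10, 2 were higher and 5 lower (median -0.24), a share called near the 62.5% of all genes. The lower ones included the histone methylase Ezh2 (-1.87 ± 0.13), its partner Suz12 (-1.16 ± 0.12) and Cbx7 (-1.14 ± 0.26). In the ARF and p53 axis, Mdm2 was higher and Trp53 and Mdm4 were lower, each by less than 2-fold. Neither Mtap (-0.17 ± 0.11, adjusted p = 0.19) nor Gm12610 (-0.68 ± 0.36, adjusted p = 0.108), the tested neighbours of the locus, passed the test.

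ATAC-seq asked whether the start sites opened or closed with the RNA. For each start site the strongest peak within 1000 bases was taken in each sample, and its rank among all peaks of that sample was given as a percentile, with 0 for no peak. Samples held 142384 to 231558 peaks, with the fewest at P3 (142384 to 155681) and the most at P7 (200376 to 231558), and the read depth of each sample was not given in the sources used here. Between P7 and P1 the samples did not overlap at 8 of 10 member start sites, 4 higher and 4 lower, where 42.6% of 21539 annotated start sites with a peak did not overlap, 13.3% higher and 29.3% lower. With 4 samples against 3, the smallest p of the exact two-sided permutation test is 0.0286, which each of the 8 reached (adjusted p = 0.0357 over the 10 sites). By MACS2's fold enrichment, the height of a peak over its background, 5 sites were higher and 0 lower (29.8% and 8.06% of all sites), so none of the 4 sites that were lower in rank was lower in height without overlap.

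**Figure D2:**
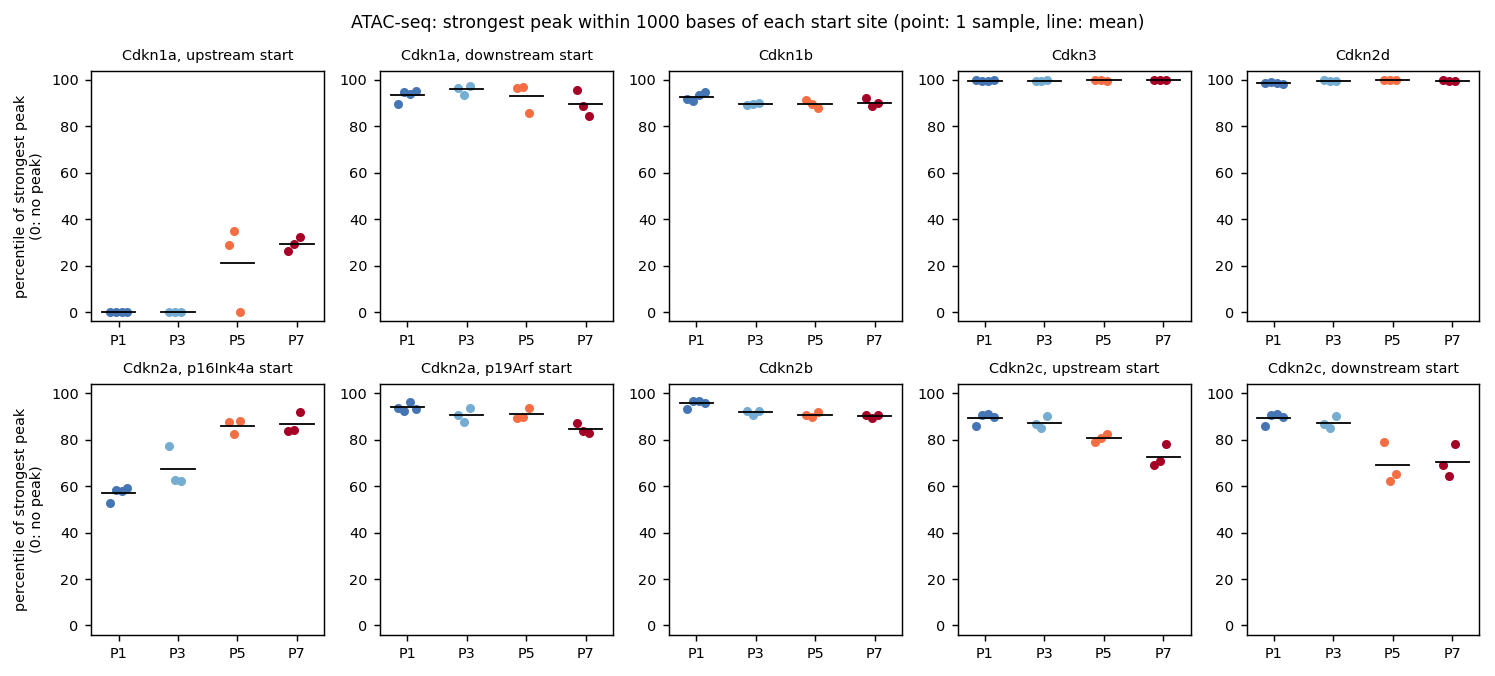
Percentile of the strongest ATAC-seq peak within 1000 bases of each of the 10 member start sites, for each sample by passage, with the mean. The p16Ink4a start climbs from 57.0 at P1 to 86.7 at P7, the upstream Cdkn1a start has a peak in 2 of 3 P5 and 3 of 3 P7 samples only, and the Cdkn2c starts fall.

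The p16Ink4a start changed most among the sites that had a peak in every sample. Its percentiles were 52.7, 58.1, 58.0 and 59.3 at P1, 77.1, 62.6 and 62.2 at P3, 87.6, 82.6 and 87.9 at P5, and 83.8, 84.2 and 92.1 at P7. All later samples lay above all P1 samples, and P5 and P7 overlapped. Its fold enrichment was 5.80 ± 0.50 (SD, n = 4) at P1, 12.4 ± 1.42 at P5 and 11.46 ± 1.61 at P7 (n = 3 each), and the bases covered by peaks in the window rose from 612 ± 117 to 1187 ± 85.4. The peak summit lay within 50 bases of the start in all 13 samples. RNA of Cdkn2a still rose from P5 to P7, where this rank did not (86.0 ± 2.99 and 86.7 ± 4.64).

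At the p19Arf start the peak was strong throughout and its rank went down. It stood at 93.5, 92.6, 96.3 and 93.4 at P1 and at 87.1, 83.7 and 82.7 at P7. P3 (87.8 to 93.7) and P5 (89.5 to 93.8) overlapped P1. The height overlapped between P1 and P7, with fold enrichments of 12.4 ± 0.90 and 12.96 ± 0.83 (exact permutation p = 0.4). So rank and height gave opposite signs at P7. At P5 the height was above P1 without overlap (14.5 ± 0.48, exact permutation p = 0.0571). Cdkn2b fell in rank earlier, from 93.4, 96.7, 96.5 and 95.9 at P1 to 90.65 to 92.5 at P3, 89.7 to 91.9 at P5, and 90.7, 89.3 and 90.7 at P7, and all later samples lay below all P1 samples. Its height overlapped between P1 and P7, with fold enrichments of 12.7 ± 1.39 and 12.4 ± 0.94 (exact permutation p = 0.771). The RNA of Cdkn2b rose 3.71-fold over the same passages.

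Cdkn1a had no peak within 1000 bases of its upstream start in any of the 4 P1 or 3 P3 samples. At P5 the percentiles were 28.7, 35.1 and 0, and at P7 26.2, 29.2 and 32.3. These were weak peaks, with fold enrichments of 2.26 ± 0.10 at P7, and their summits lay 11 to 24 bases before the start. The p53 decamers printed above lie within 73 bases of that start. The downstream start carried a strong peak in all samples (93.4 ± 2.47 at P1 and 89.6 ± 5.45 at P7, exact permutation p = 0.286), but in 10 of 13 samples the summit of that broad peak was 1713 to 1747 bases further into the gene. The RNA of Cdkn1a rose 2.89-fold over the same passages.

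The Cdkn2c starts fell in rank with their RNA. The upstream start went from 85.8, 90.7, 91.2 and 89.8 at P1 to 79.1, 80.9 and 82.4 at P5 and 69.1, 71.0 and 78.0 at P7. P3 (85.01 to 90.3) overlapped P1. The fold enrichment, 8.01 ± 0.97 and 7.07 ± 1.25, did not separate P1 from P7 (exact permutation p = 0.314). The downstream start shares the same broad peak in 10 of 13 samples and was at 70.5 ± 6.94 at P7.

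Cdkn2d and Cdkn3 kept peaks in the top few percent while their RNA fell. Cdkn2d was at 98.7, 98.9, 98.9 and 98.3 at P1 and at 99.8, 99.5 and 99.6 at P7, and its fold enrichment rose from 9.04 ± 0.54 to 11.4 ± 0.35. For Cdkn3 the percentiles were 99.81, 99.66, 99.70 and 99.78 at P1 and 99.89, 99.94 and 99.95 at P7, with fold enrichments of 22.2 ± 0.70 and 26.3 ± 2.79. Both were higher without overlap by rank and by height, and both covered fewer bases at P7 (752 ± 21 against 829 ± 53.5 for Cdkn2d, and 751 ± 201 against 1007 ± 31.9 for Cdkn3). So the peak over the Cdkn3 start was higher and narrower at the passage where its RNA was 5.97-fold lower. Greater height was common at P7, where 29.8% of all start sites were higher by fold enrichment and 8.06% lower. For bases covered, the share over all start sites was not computed. P7 samples held more peaks than P1 samples (200376 to 231558 against 168982 to 186562). The bases under all peaks overlapped (91804139 to 98258966 against 88503562 to 95944691), so the mean peak was shorter at P7. Whether Cdkn2d and Cdkn3 differ from this shift was not tested. The Cdkn1b start overlapped between P1 (91.1 to 94.6) and P7 (88.7 to 92.1).

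At the earlier passages fewer sites separated. From P1 to P3 it was 4 of 10, with 2 higher and 2 lower (26.7% of all start sites, 5.05% higher and 21.6% lower), and from P1 to P5 it was 5 of 10, with 2 higher and 3 lower (33.9%, 11.8% higher and 22.2% lower). The p16Ink4a and Cdkn2d starts were the 2 higher ones both times. Without P5 replicate 3, which lacked the upstream Cdkn1a peak, 9 of 10 separated from P1 to P5. With fewer samples sites separate more easily, and the share over all start sites was not computed for that setting. None passed after adjustment over the 10 sites (smallest adjusted p of the exact permutation test = 0.143 at P3 and 0.0714 at P5). No site could pass alone: the smallest p is 0.0286, so passing needs several sites to reach it. At P7 the sites that reached it include both Cdkn2c starts, which share a peak in most samples.

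The locus was followed from 10000 bases before to 10000 bases after the span of Cdkn2a and Cdkn2b, chr4:89264473-89321032. Peaks covered 6314 ± 449 bases of it at P1, 6285 ± 439 bases in the P3 samples, 6520 ± 433 at P5 and 6202 ± 1411 at P7. The difference of -112 bases between P7 and P1 was within the spread of the samples (exact permutation p = 0.8286). The number of peaks did not separate either (9.0 ± 0.82 at P1 and 9.67 ± 1.53 at P7, exact permutation p = 0.514). The difference in covered bases ran from -866.5 to 531.0 as single samples were left out and turned positive without P7 replicate 2 (531.0) or P1 replicate 4 (70.7).

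**Figure D3:**
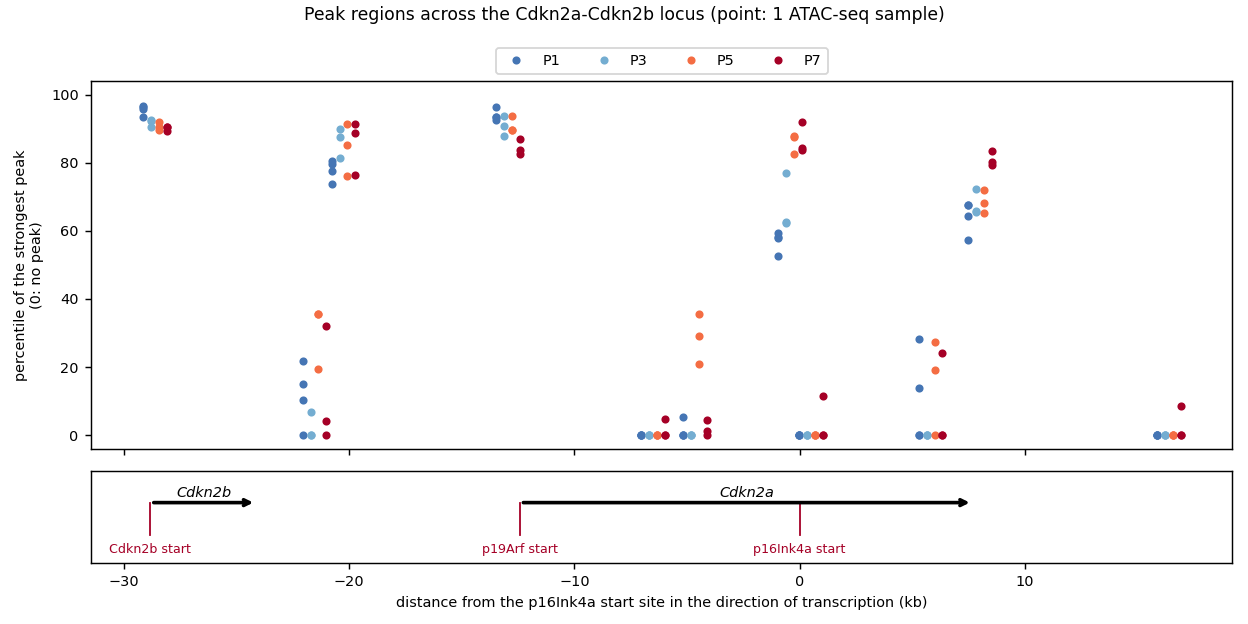
Percentile of the strongest peak in each of 11 merged regions across the Cdkn2a-Cdkn2b locus, for each ATAC-seq sample, placed by distance in kilobases from the p16Ink4a start; the arrows below show the genes. The regions at the p16Ink4a start and at the end of Cdkn2a rise with passage, and those at the p19Arf and Cdkn2b starts fall in rank.

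Merging the peaks of all 13 samples gave 11 regions, of which 5 had a peak in every sample and 3 in 1 sample only. Of the 5, 2 were higher at P7 without overlap, 2 were lower and 1 overlapped. The higher ones were the p16Ink4a start and a region at the end of Cdkn2a, chr4:89273050-89275300, which overlaps its last exon and whose summit lies 8083 bases beyond the p16Ink4a start. The latter went from 64.3 ± 4.87 at P1 through 68.0 ± 3.82 and 68.5 ± 3.33 to 81.0 ± 2.14 at P7, with fold enrichments of 6.06 and 9.92 at P1 and P7. The lower ones were the p19Arf and Cdkn2b starts. The remaining shared region, chr4:89301847-89303037, lies between the genes in an intron of Gm12610 and was at 77.9 ± 3.11 and 85.5 ± 7.95 (exact permutation p = 0.171). A small region at -4566 bases from the p16Ink4a start had a peak in 1 of 4 P1, 0 of 3 P3, 3 of 3 P5 and 2 of 3 P7 samples. Over the genome, 22.4% of 283350 merged regions were higher at P7 without overlap and 7.38% lower, and 0 of the 11 here were in all P7 and no P1 samples, against 5.57% of all.

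Overexpression of E2f4 in pre-senescent cells moved 5 of the 7 genes, where 57.2% of 13199 genes passed the test, 28.9% higher and 28.2% lower. Cdkn2c, Cdkn2d and Cdkn1b rose and Cdkn2a and Cdkn2b fell, each without overlap of the 2 libraries against 2. Cdkn2c was at 51.4 and 47.4 CPM in E2f4_OE and at 19.5 and 16.4 CPM with the vector, 2.74-fold higher (adjusted p = 1.89e-05). Cdkn2d was at 22.2 and 25.4 CPM against 8.69 and 11.1, 2.42-fold higher (adjusted p = 0.000102). These are the INK4 genes that fell with passage.

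The INK4 genes that had risen with passage were lower. Cdkn2a was at 28.6 and 26.1 CPM against 48.5 and 49.04 (log2 fold change -0.83 ± 0.12, adjusted p = 0.000205), and Cdkn2b at 23.7 and 22.0 CPM against 36.9 and 38.7 (-0.72 ± 0.12, adjusted p = 0.000622). Cdkn1b rose by 0.47 ± 0.11, from 49.9 and 48.2 CPM to 68.9 and 66.5. Cdkn1a, at 458 and 507 CPM against 413 and 495, and Cdkn3, at 7.09 and 5.30 CPM against 5.24 and 6.22, did not pass the test (adjusted p = 0.527 and 0.616). Per kilobase the INK4 sum was 81.2 ± 1.88 with E2f4 and 85.8 ± 1.59 with the vector (SD, n = 2). Other measures differed between these groups: the proliferation markers summed to 1373 and 1512 CPM against 912 and 917, the Y-linked gene Ddx3y was at 7.36 and 9.96 CPM against 36.5 and 36.8, and Xist at 560 and 686 CPM against 1156 and 1400. Reads on rows that name no gene were 7.50% and 7.89% against 12.26% and 12.91%. Their part in the result was not tested.

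**Figure D4:**
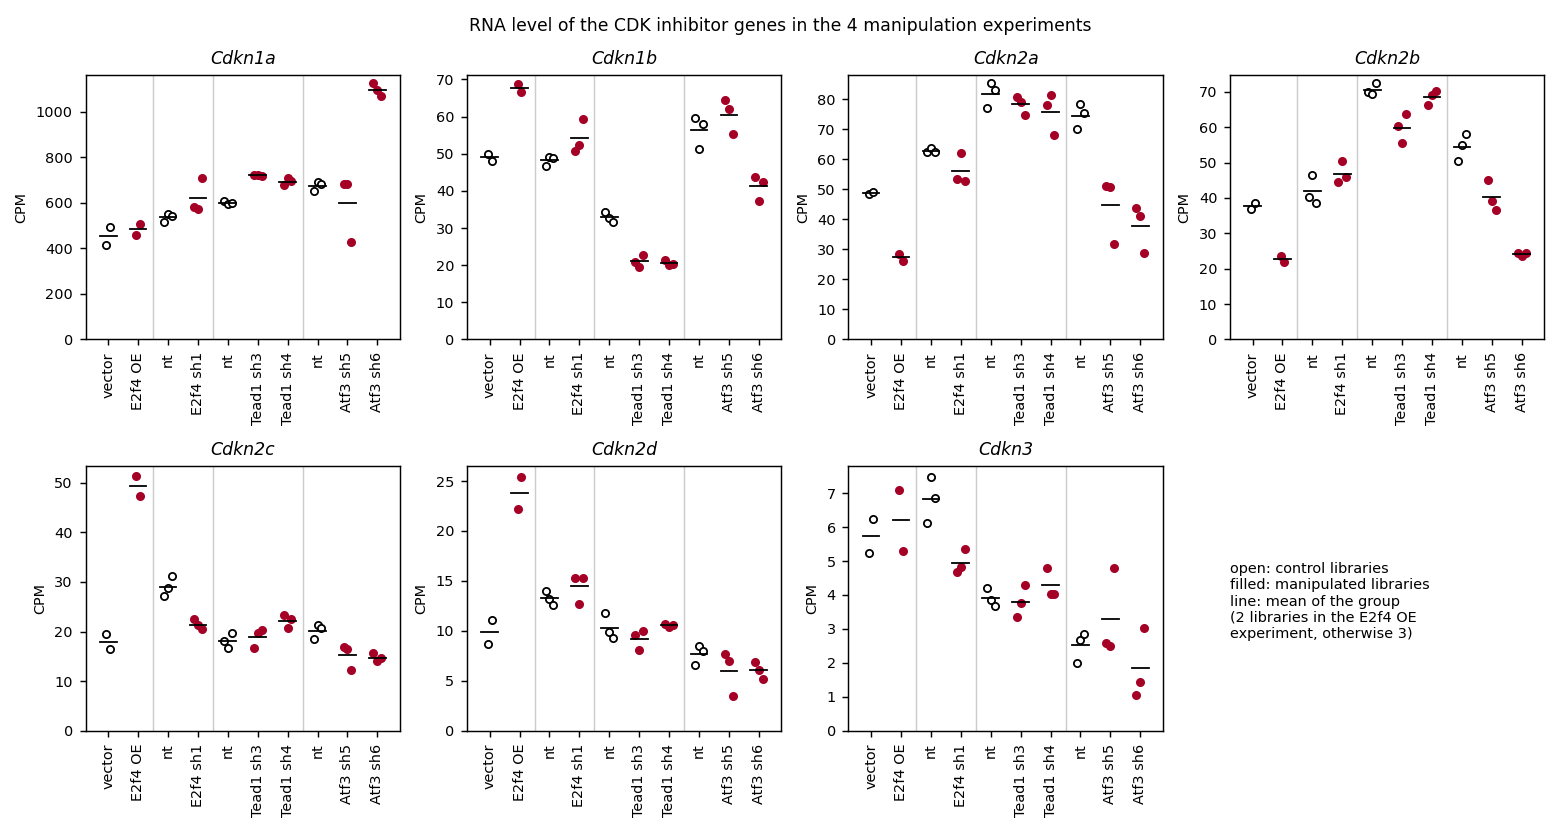
RNA level in CPM of the 7 genes in each library of the 4 manipulation experiments, open for controls and filled for manipulated cells, with the group means; levels are comparable within an experiment. Cdkn2c and Cdkn2d stand highest with E2f4 overexpression, Cdkn1b is lower with both Tead1 hairpins, and Cdkn2a and Cdkn2b are lower with both Atf3 hairpins.

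With the E2f4 hairpin, 1 of 7 genes passed the test (17.8% of 12310). It was Cdkn2c, at 22.5, 21.2 and 20.5 CPM against 27.1, 28.8 and 31.3 with nt, a change of -0.44 ± 0.10 (adjusted p = 0.00919). The call was lost without E2f4_nt replicate 3 (-0.37, adjusted p = 0.062). Thus Cdkn2c was higher with more E2f4 in pre-senescent cells and lower with less in proliferating cells. These were separate experiments with separate controls. Cdkn1a was above its controls in all 3 libraries (582, 572 and 707 CPM against 516, 551 and 544) but did not pass (0.21 ± 0.08, adjusted p = 0.0734), and under 4 of the other settings it did (adjusted p from 0.00997 to 0.0443). Cdkn2a (-0.16 ± 0.09, 95% interval -0.345 to 0.02) and Cdkn2d (0.13 ± 0.14, interval -0.17 to 0.42) did not pass. The proliferation markers summed to 604 to 642 CPM with sh1 and to 803 to 860 CPM with nt.

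The Tead1 hairpins were most visible at Cdkn1b. It was at 20.97, 19.4 and 22.8 CPM with sh3, at 21.4, 19.9 and 20.3 CPM with sh4 and at 34.2, 32.8 and 31.6 CPM with nt. The log2 fold changes were -0.64 ± 0.08 (adjusted p = 5.62e-08) and -0.68 ± 0.08 (adjusted p = 3.19e-08). Both hairpins were compared with the same 3 nt libraries. By the study's hairpin sequences, sh3 and sh4 target nearly the same stretch of Tead1, so their agreement is not that of independent hairpins. Cdkn1a rose slightly, from 606, 595 and 598 CPM to 723, 720.0 and 718 with sh3 (0.26 ± 0.04) and to 676, 707 and 696 with sh4 (0.21 ± 0.04). In all, 3 of 7 genes passed with each hairpin, where 35.4% (sh3) and 29.1% (sh4) of 13012 genes did. The third was Cdkn2b with sh3 (-0.24 ± 0.06, adjusted p = 0.000992) and Cdkn2c with sh4 (0.29 ± 0.09, adjusted p = 0.0152), which was lost without Tead1_sh4 replicate 1 (adjusted p = 0.0688) or Tead1_nt replicate 2 (adjusted p = 0.0855). None of these changes reached 2-fold.

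Cdkn2a did not pass with either Tead1 hairpin. It was at 80.9, 79.1 and 75.0 CPM with sh3 and 78.3, 81.3 and 68.2 CPM with sh4, against 77.2, 85.3 and 83.0 CPM with nt. The 95% intervals of the log2 fold changes were -0.18 to 0.05 and -0.23 to 0.01. Between the hairpins, 1 of 7 genes differed (7.37% of all genes): Cdkn2b was 0.20 ± 0.06 higher with sh4 (adjusted p = 0.0246), a difference that was lost on leaving out any of 4 libraries (adjusted p from 0.0578 to 0.171).

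The Atf3 hairpins lowered the Cdkn2a-Cdkn2b pair. Cdkn2b was at 45.01, 39.0 and 36.5 CPM with sh5 and at 24.3, 23.6 and 24.5 CPM with sh6, against 50.3, 54.9 and 58.1 CPM with nt. Its log2 fold changes were -0.44 ± 0.10 (adjusted p = 0.00734) and -1.17 ± 0.10 (adjusted p = 5.98e-06). Cdkn2a was at 51.1, 51.0 and 31.9 CPM with sh5, at 43.8, 41.0 and 28.9 CPM with sh6 and at 70.0, 78.3 and 75.4 CPM with nt. The changes were -0.74 ± 0.19 (adjusted p = 0.0139) and -0.98 ± 0.19 (adjusted p = 0.00173), and the first was lost without Atf3_nt replicate 2 (adjusted p = 0.0536). No library of either hairpin overlapped the nt libraries for these 2 genes.

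With sh5, 3 of 7 genes passed (35.9% of 13345), the remaining call being Cdkn2c (-0.40 ± 0.13, adjusted p = 0.0384). Without Atf3_sh5 replicate 3, the library that stood apart, Cdkn2a (-0.52 ± 0.12) and Cdkn2b (-0.35 ± 0.09) still passed and Cdkn2c did not (-0.24 ± 0.10, adjusted p = 0.0739). The sh5 call of Cdkn2c was also lost on leaving out any single nt library (adjusted p from 0.0508 to 0.125). It was lost without a filter on low counts (0.0595) and with only the groups compared (0.0867) as well. With sh6, 5 of 7 passed (49.8%), adding a rise of Cdkn1a and a fall of Cdkn1b. The sh6 call of Cdkn2c (-0.45 ± 0.13) was lost on leaving out any of 4 libraries (adjusted p from 0.0533 to 0.0644). Cdkn1a was at 1127, 1093 and 1066 CPM with sh6 against 652, 691 and 681 CPM with nt (0.70 ± 0.15, adjusted p = 0.00266), while with sh5 it was at 682, 682 and 430 CPM (-0.17 ± 0.15, adjusted p = 0.366). Without Atf3_sh5 replicate 3, the library at 430 CPM, the sh5 value turned to 0.04 ± 0.05 (adjusted p = 0.538). Cdkn1b was at 43.7, 37.3 and 42.5 CPM with sh6 against 59.7, 51.3 and 58.0 CPM with nt (-0.45 ± 0.10, adjusted p = 0.00325).

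Tested against each other, the Atf3 hairpins differed at 3 of 7 genes (52.6% of all genes). Cdkn1a was 0.87 ± 0.15 higher with sh6 (adjusted p = 0.000683), Cdkn1b 0.56 ± 0.10 lower and Cdkn2b 0.73 ± 0.10 lower. Cdkn2a did not pass (-0.24 ± 0.19, adjusted p = 0.317), but it did without Atf3_sh5 replicate 3 (-0.45 ± 0.12, adjusted p = 0.00569). Skeletal muscle markers summed to 201 to 220 CPM with sh6, 17.6 to 18.9 CPM with sh5 and 39.0 to 39.9 CPM with nt, and Xist was at 407 to 464, 199 to 269 and 301 to 327 CPM with sh5, sh6 and nt. Of 10 fibroblast markers, 6 were lower and 1 higher with sh6 than with nt (median log2 fold change -0.77), 1 was lower and 3 higher with sh5 (median -0.10), and 7 were lower and 1 higher with sh6 than with sh5 (median -1.02). Their part in these differences was not tested. Cdkn3 and Cdkn2d did not pass with any hairpin.

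**Figure D5:**
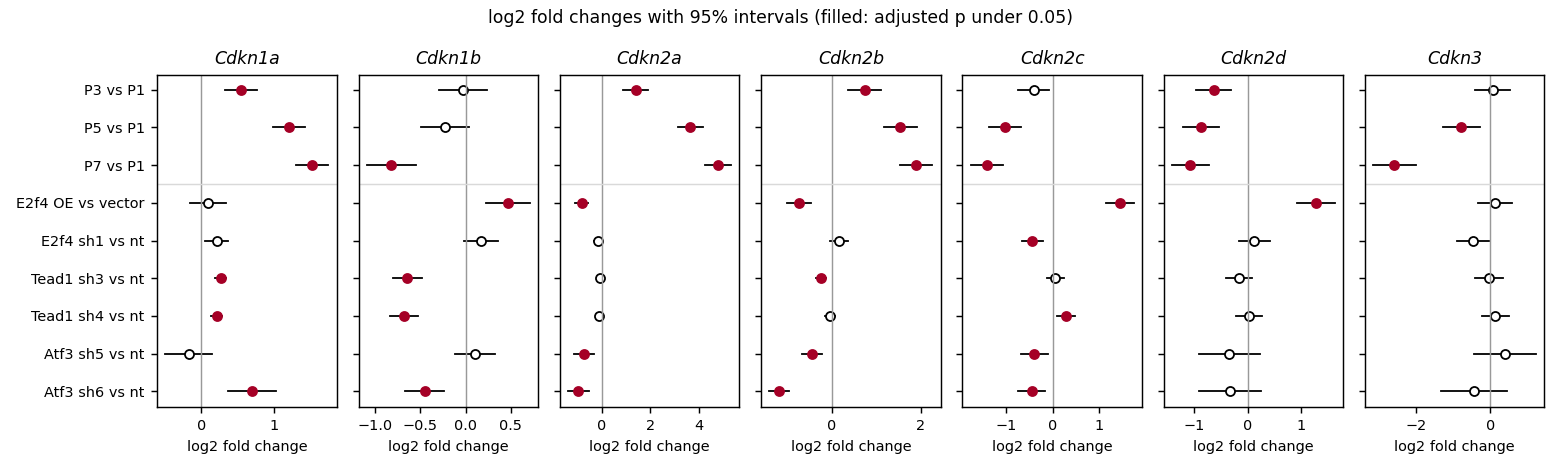
log2 fold changes of the 7 genes with 95% intervals from edgeR for the passages against P1 and each manipulation against its own control; filled points have an adjusted p under 0.05. Cdkn2a and Cdkn2b lie right of 0 at all 3 later passages and left of 0 with E2f4 overexpression and with both Atf3 hairpins, and Cdkn2c and Cdkn2d show the reverse for passage and E2f4 overexpression.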

How the data were processed

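RNA-seq was analysed in 44 libraries and ATAC-seq in 13 samples, grouped by the labels, and the 18 bisulfite samples were not analysed here. Per the labels and the study's methods, the authors used Trimmomatic 0.39 to trim RNA reads, HISAT2 2.2.1 for alignment (build mm10) and HTSeq 0.12.4, without strand, for gene totals, and the deposited values are raw counts. For ATAC-seq the authors aligned reads with Bowtie2 2.3.5.1, removed duplicates and called peaks in each sample with MACS2, and the deposited peak lists give a fold enrichment (a ratio) and −log10 p-values and q-values. The deposited MACS2 score was not used. Counts of each experiment were fitted apart with edgeR 4.0.16 in R 4.3.3 (filterByExpr, TMM, quasi-likelihood test), over 12310 to 13442 genes, and a gene was called at a Benjamini-Hochberg adjusted p under 0.05. Standard errors are the log2 fold change over the root of F. Rows that name no gene were left out. Peaks with several summits were merged, and each start site took the strongest peak within 1000 bases, as the percentile of its −log10 p in the sample. Start sites and the locus were compared with exact two-sided permutation tests (35 splits). Named genes were the 7 members, the lists, and the 3 nearest profiles of each member (those of Cdkn2d are not reported here). The members and lists were chosen with earlier results of these data known. The fit was tested on simulated data. Alternatives were DESeq2 1.42.0, its size factors, other filters, a fold over 2, a replicate block, fits restricted to the groups compared, other peak measures and windows, and leaving out each library. Intervals cover the spread between libraries only.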

Additional observations from a re-analysis of the deposited data

Results flagged for a closer look

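Cdkn2d had a library far from the rest of its group at each of the early passages. In P1, replicate 3 stood at 24.4 CPM while the other 3 libraries lay between 19.7 and 20.05 CPM, and in P3, replicate 1 stood at 15.8 CPM while the others lay between 12.6 and 12.8 CPM. These were 2 of 38 groups tested, and chance alone flags about 1 in 20.

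Hairpins directed at the same gene differed. For Tead1, Cdkn2b was higher with sh4 than with sh3 by 0.20 on the log2 scale. For Atf3, Cdkn1a was higher with sh6 than with sh5 by 0.87, and the log2 differences of Cdkn1b and Cdkn2b were -0.56 and -0.73. Each passed edgeR's test of the difference itself. The fall of the targeted gene passed the test for sh5 and not for sh6, and Atf3 did not pass between the hairpins (0.35, adjusted p = 0.504).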

How the results depend on the processing

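Over the alternatives that refit the RNA, 1166 fold changes of single members kept their direction and side of the threshold, 33 lost a call, 16 gained one and 17 turned in sign, none of them a change that passed the test in either fit. With a fold over 2 asked for as well, 57 calls became 21. The members called were then 1 for P3 against P1, 4 for P5 against P1 and 6 for P7 against P1. They were 1 for P5 against P3, 4 for P7 against P3 and 2 for P7 against P5. With E2f4 overexpression 2 were called and with Atf3 sh6 1. It was 0 with E2f4 sh1, with Tead1 sh3 and sh4, between the Tead1 hairpins, with Atf3 sh5 and between the Atf3 hairpins. The share of all genes passing this rule is not given here. Leaving out 1 library gave 4 to 4 members for P3 against P1, 6 to 6 for P5 against P1, 7 to 7 for P7 against P1, 4 to 5 for P5 against P3, 6 to 7 for P7 against P3, 3 to 5 for P7 against P5, 5 to 6 with E2f4 overexpression, 0 to 2 with E2f4 sh1, 3 to 3 with Tead1 sh3, 2 to 3 with sh4, 0 to 1 between them, 1 to 3 with Atf3 sh5, 4 to 5 with sh6 and 3 to 4 between them. With E2f4 sh1, 2 members were called without a filter on low counts. Same-numbered libraries were not treated as paired, since the labels do not tie them and their deviations correlated over 0.1 in 11 of 24 pairs of the passages (-0.26 to 0.28). With the replicate block, Cdkn2c from P1 to P3 (adjusted p = 0.0269) and Cdkn2b from P5 to P7 (0.38, adjusted p = 0.0177) gained a call. Cdkn1a with E2f4 sh1, which made 2 members there, and Cdkn3 between the Atf3 hairpins (-0.88, adjusted p = 0.0259) also gained one. Cdkn2c with Atf3 sh5 lost its call (adjusted p = 0.0519). For the peaks, the block took the differences of same-numbered samples. At P5, 8 start sites had differences of the same sign in every pair, a weaker condition than no overlap. P1 replicate 4 has no partner in this pairing and drops out, so the locus difference was 70.7 bases, as without that sample. Signs of RNA changes turned on leaving out 1 library, with ranges of -0.085 to 0.038 for Cdkn1b and -0.074 to 0.17 for Cdkn3 from P1 to P3, -0.036 to 0.22 for Cdkn1a and -0.11 to 0.32 for Cdkn3 with E2f4 overexpression, -0.0017 to 0.14 for Cdkn2c and -0.14 to 0.044 for Cdkn3 with Tead1 sh3, -0.040 to 0.14 for Cdkn2d with sh4, -0.091 to 0.025 for Cdkn1b and -0.093 to 0.028 for Cdkn2a between the Tead1 hairpins, -0.28 to 0.042 for Cdkn1a with Atf3 sh5, and -0.20 to 0.029 for Cdkn2c and -0.28 to 0.22 for Cdkn2d between the Atf3 hairpins, where Cdkn2d also turned with at least 10 counts in every library (-0.017).

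By fold enrichment 1 start site separated at P3 and 5 at P7, and by bases covered 1 at P3 and 5 at P7. At P5 the p19Arf, p16Ink4a, Cdkn2d and Cdkn3 starts separated by fold enrichment, all of them higher. By bases covered, the p16Ink4a start was higher at P5 and Cdkn1b, both Cdkn2c starts, Cdkn2d and Cdkn3 were lower. Leaving out 1 sample gave 4 to 6 sites at P3, 5 to 9 at P5 and 8 to 10 at P7, and -866.5 to 531.0 bases for the locus. With fewer samples sites separate more easily, and shares over all start sites were not computed for these counts. Signs turned at P3 by bases covered for Cdkn1b (122.08), the p19Arf start (9.33), Cdkn2b (82.08) and Cdkn2d (-39.17), and by fold enrichment for both Cdkn2c starts (0.17). At P5 they turned for the p19Arf start (2.11), Cdkn1b (0.39) and the downstream Cdkn1a start (0.43) by fold enrichment, for Cdkn2d (-80.83) and Cdkn3 (-114.92) by bases covered, and for the downstream Cdkn1a start in a window of 500 bases (2.43), with the replicate block (0.18) and without P5 replicate 3 (3.20, where leaving out single samples gave -2.30 to 3.20). At P7 they turned in a window of 500 bases for the downstream Cdkn1a start (3.44), by fold enrichment for Cdkn1b (1.53) and the p19Arf start (0.57), and by bases covered for Cdkn2d (-76.50) and Cdkn3 (-256.58). The causes were not tested. Cdkn3 at P7 rests on 13 to 36 reads per library.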

Other observations

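Cdkn1c, which encodes p57, the remaining CIP/KIP inhibitor and the product of an imprinted gene, is not one of the 7 genes and was singled out after its values were seen. In the Atf3 experiment it was at 93.6, 91.9 and 101.6 CPM with nt, at 29.6, 40.2 and 33.9 CPM with sh5 and at 2.73, 3.36 and 4.01 CPM with sh6. No library of one group overlapped another. Its log2 fold changes against nt were -1.47 ± 0.13 (edgeR adjusted p = 9.35e-05) and -4.83 ± 0.16 (adjusted p = 2.67e-08), and sh6 was below sh5 by -3.36 ± 0.16. With the Tead1 hairpins it was also lower, by -0.43 ± 0.15 and -0.66 ± 0.15, and with E2f4 overexpression it was higher, at 7.60 and 7.41 CPM against 4.10 and 5.01 (0.73 ± 0.19, adjusted p = 0.00772). In the passages it was scarce, at 0.388 to 3.65 CPM. It was lower at P5 than at P1 (-1.30 ± 0.38, adjusted p = 0.00729), and neither P7 against P1 (-0.24 ± 0.35, adjusted p = 0.565) nor P7 against P5 (1.06 ± 0.39, adjusted p = 0.068) passed the test.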
